A study of Mus musculus with 18 samples.

Results

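The 10 core genes of nonhomologous end joining (NHEJ) were followed in 6 cell populations of the mouse airway and lung. They were Xrcc5, Xrcc6, Prkdc, Dclre1c, Polm, Xrcc4, Lig4, Nhej1, Paxx and Aplf, taken as a list of symbols that was matched to the Entrez identifiers of the count data. All 10 were found among the 27179 genes counted, and all 10 were among the 17989 genes that passed the filter on low counts. RNA was sequenced from 18 libraries of sorted cells, 3 for each population, from young adult male C57BL/6 mice. Basal cells (NGFR pos) and non-basal cells (NGFR neg) came from the tracheas of mice 1 to 3. Airway CD24hi cells (EpCAM pos CD104 pos CD24hi, by label enriched in ciliated cells), airway CD24lo cells (the same gate but CD24lo, by label enriched in club cells), alveolar cells (EpCAM pos CD104 lo) and EpCAM-negative, non-epithelial cells came from the lungs of mice 4 to 6. The design text of the series names airways of lungs for all 6 mice, and the labels of the samples were followed here. By these labels, any comparison of a tracheal with a lung population also compares organs, mice, cell preparation and sequencing depth, and these cannot be told apart. Per the methods, mouse lungs were digested with collagenase, and tracheal cells were released with dispase and trypsin. Staining for CD45 and CD31 is described there for the lung but not for the trachea.

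NHEJ joins the broken ends of DNA without a matching template and works throughout the cell cycle, so that it also serves cells that rarely divide, as most cells of the resting airway and lung do. The Ku ring of Xrcc5 (Ku80) and Xrcc6 (Ku70) threads onto a broken end and recruits the kinase DNA-PKcs, encoded by Prkdc. Ends that cannot be joined directly are trimmed by the nuclease Artemis (Dclre1c) or filled by polymerase mu (Polm), and the ligase Lig4 seals them together with its partner Xrcc4, helped by Nhej1 (XLF), Paxx and the scaffold protein Aplf.

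The bases before the start of 4 of these genes are shown because they differ between populations, Xrcc5 and Paxx across the 6 populations and Dclre1c and Polm between both airway populations, and because their windows hold no exon of GENCODE M21. Each is the 250 bases before a transcript start listed by RefSeq on GRCm38.p6, written 5′ to 3′ on the strand of the gene. For Paxx and Polm this start lies inside the gene as located here, downstream of its outermost end. The Xrcc5 and Dclre1c windows run past the start of the gene as located here. These windows therefore need not be the promoters in use. Capitals mark the CCAAT box (CCAAT) and the GC box (GGGCGG), searched on both strands, so that ATTGG and CCGCCC are matches on the other strand.
Xrcc5, chr1:72307171-72307420, plus strand: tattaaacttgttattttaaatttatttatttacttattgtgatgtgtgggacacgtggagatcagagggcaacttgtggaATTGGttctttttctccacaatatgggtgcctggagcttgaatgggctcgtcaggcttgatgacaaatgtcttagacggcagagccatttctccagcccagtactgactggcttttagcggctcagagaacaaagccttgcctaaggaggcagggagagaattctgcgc
Paxx, chr2:25461095-25461344, minus strand: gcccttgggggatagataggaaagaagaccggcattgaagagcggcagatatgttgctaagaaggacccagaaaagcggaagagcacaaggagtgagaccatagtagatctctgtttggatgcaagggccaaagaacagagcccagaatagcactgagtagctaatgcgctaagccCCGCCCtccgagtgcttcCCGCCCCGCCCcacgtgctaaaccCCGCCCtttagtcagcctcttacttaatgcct
Dclre1c, chr2:3423881-3424130, plus strand: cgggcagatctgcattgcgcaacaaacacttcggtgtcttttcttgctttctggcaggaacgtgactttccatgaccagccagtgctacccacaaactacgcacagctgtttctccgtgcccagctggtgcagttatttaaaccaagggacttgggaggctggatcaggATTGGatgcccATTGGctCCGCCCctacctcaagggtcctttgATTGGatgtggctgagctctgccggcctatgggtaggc
Polm, chr11:5838017-5838266, minus strand: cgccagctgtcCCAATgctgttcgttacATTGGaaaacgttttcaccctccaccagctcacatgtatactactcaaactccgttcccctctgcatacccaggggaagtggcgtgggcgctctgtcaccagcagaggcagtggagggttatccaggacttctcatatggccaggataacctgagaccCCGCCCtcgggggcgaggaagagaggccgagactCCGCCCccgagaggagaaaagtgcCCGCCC
The Xrcc5 window held 1 CCAAT box and no GC box, and the Paxx window held 4 GC boxes, of which an adjacent pair overlap, and no CCAAT box. Dclre1c had 3 CCAAT boxes and 1 GC box, and Polm 2 CCAAT boxes and 3 GC boxes. RefSeq windows were at hand for 9 of the 10 genes (all but Prkdc), with 2 for Lig4. Of these 10 windows, 4 held a CCAAT box and 7 a GC box, beside 33.8% and 32.7% of all 32851 mouse windows of the same length. Exons of GENCODE M21 covered 250 bases of the window at Xrcc6, 175 at Xrcc4, 230 at 1 of those of Lig4 and 62 at Aplf. The Xrcc6 window and the other Lig4 window also lie inside these genes as located here, and the Aplf window runs past the start of its gene. These counts therefore need not describe the promoters in use. The ETS motif CCGGAAGT stood in 1 window, at Lig4, beside 2.88% of all windows, and the CRE motif TGACGTCA in 1, at Aplf, beside 1.55%. The windows ranged from 44.8% GC at Xrcc5 to 70.0% GC at Lig4, with a median of 57.0% beside 52.4% over all windows.

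Levels are given as RPKM, reads per kilobase of gene length after TMM scaling of library sizes, with the SD over 3 libraries. Differences are log2 fold changes with their standard error (SE), and a gene was called different where the adjusted p of edgeR's quasi-likelihood test, corrected over all 17989 genes, was under 0.05. The total count per library was 29317215 to 32993621 in the trachea and 9811503 to 13208897 in the lung. The tracheal totals are above the number of reads per mouse sample in the methods, and whether sequencing runs were merged is not given in the sources used here. The lowest count of any of the 10 genes in a library was 24, for Nhej1 in airway CD24lo cells, and the highest was 2649, for Xrcc5. In bulk RNA, fewer cells of a type and less RNA per cell cannot be told apart.

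The sorted populations carried the markers of their labels, and some carried others as well. The summed level of 6 ciliated cell markers was 1457 to 1579 RPKM in airway CD24hi and 122 to 268 RPKM in airway CD24lo cells. For 5 club and secretory markers, led by Scgb1a1 in both, the sum was 505078 to 710521 RPKM in airway CD24lo and 73391 to 97320 RPKM in airway CD24hi cells. The 5 basal markers reached 3953 to 4359 RPKM in basal, 1145 to 1523 RPKM in non-basal and 114 to 191 RPKM in airway CD24lo cells. Non-basal cells also held 247 to 324 RPKM of 3 goblet cell markers, beside 8.30 to 11.8 RPKM in basal cells, and 6401 to 9057 RPKM of 5 immune markers, led by Lyz2, beside 304 to 605 RPKM in basal and 36542 to 44275 RPKM in alveolar cells. Lyz2 alone had a mean of 7336 RPKM in non-basal, 416 RPKM in basal and 40893 RPKM in alveolar cells. The immune sum was thus mostly the level of this gene and need not stand for immune cells. EpCAM-negative cells held 7510 to 7844 RPKM of 6 fibroblast and smooth muscle markers and 19.9 to 21.2 RPKM of 4 epithelial markers. The 5 alveolar type 2 markers summed to 164109 to 183631 RPKM in alveolar, 4818 to 7512 RPKM in airway CD24lo, 1228 to 2403 RPKM in airway CD24hi and 566 to 967 RPKM in EpCAM-negative cells. The lung sort removed CD31+ cells, and 4 endothelial markers summed to 128 to 222 RPKM in EpCAM-negative, 112 to 257 RPKM in airway CD24lo, 52.7 to 198 RPKM in airway CD24hi and 43.4 to 82.0 RPKM in alveolar cells. Among all marker lists only Cdh5 and Cldn5 in basal cells were at 0 in every library of a population. The part of these other cells in the results was not tested.

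**Figure D1:**
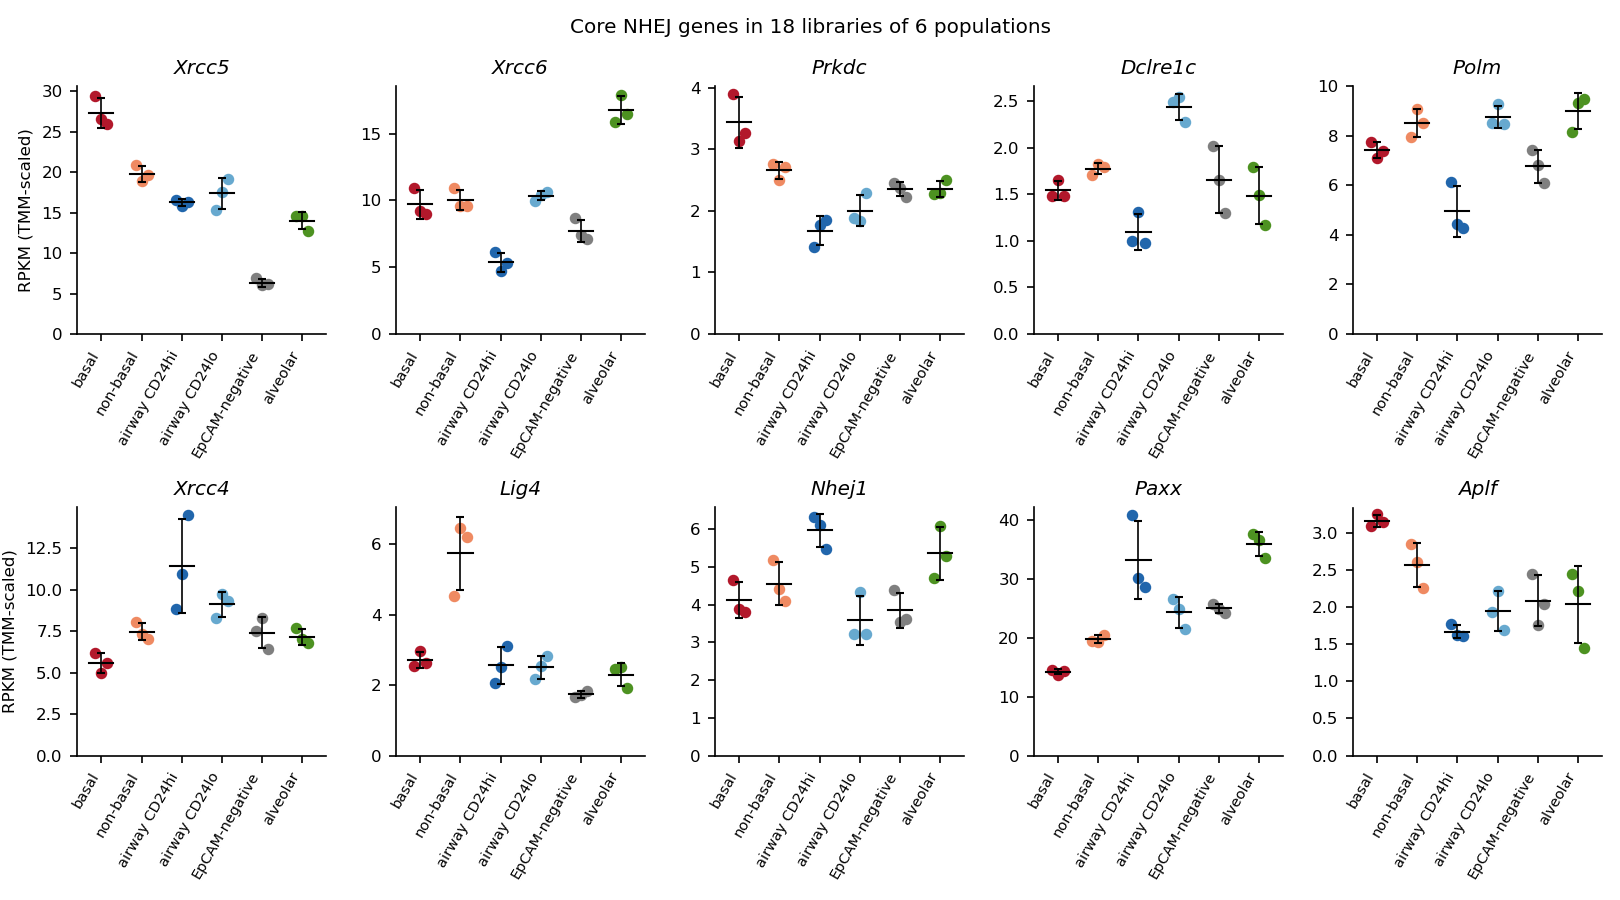
Level of each core NHEJ gene in RPKM in the 18 libraries, by population; points are libraries, with the mean and SD of 3 libraries. Xrcc5 ran from 27.3 RPKM in basal cells to 6.35 RPKM in EpCAM-negative cells, while Lig4 stood at 5.74 RPKM in non-basal cells and at 1.74 to 2.71 RPKM elsewhere.

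Xrcc5 and Xrcc6 encode the subunits of the Ku ring, and their transcripts did not follow the same order across populations. Xrcc5 (chr1:72307417-72394953, plus strand) was at 29.5, 26.5 and 25.9 RPKM in basal cells and at 20.9, 19.0 and 19.6 RPKM in non-basal cells. It was at 16.6, 15.8 and 16.4 RPKM in airway CD24hi, 15.3, 17.6 and 19.2 RPKM in airway CD24lo, 14.6, 14.6 and 12.8 RPKM in alveolar and 6.91, 6.01 and 6.14 RPKM in EpCAM-negative cells. Every basal library lay above, and every EpCAM-negative library below, all libraries of the other populations. Basal exceeded non-basal cells by a log2 fold change of 0.46 (SE 0.090, adjusted p = 0.00037), and EpCAM-negative cells differed from the mean of the 3 lung epithelial populations by −1.32 (SE 0.086, adjusted p = 1.94e-10). In between, neighbouring populations in the order of means (non-basal, airway CD24lo, airway CD24hi, alveolar) were not told apart. The difference between airway CD24hi and CD24lo cells did not pass the test (−0.094, 95% confidence interval −0.29 to 0.11, adjusted p = 0.422). Airway CD24lo cells were higher than alveolar cells (0.31, SE 0.095, adjusted p = 0.0124), a call that was lost without airway CD24lo replicate 3 (adjusted p = 0.0589), without alveolar replicate 3 (adjusted p = 0.0556) and with a correction for gene length (adjusted p = 0.0626).

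Xrcc6 (chr15:81987833-82040085, plus strand) was highest in alveolar cells, at 15.9, 17.9 and 16.5 RPKM, and lowest in airway CD24hi cells, at 6.11, 4.70 and 5.29 RPKM. The populations in between were airway CD24lo (9.98, 10.4 and 10.6 RPKM), non-basal (10.9, 9.59 and 9.55 RPKM), basal (10.9, 9.18 and 8.99 RPKM) and EpCAM-negative cells (8.66, 7.38 and 7.10 RPKM). The libraries of alveolar and of airway CD24hi cells overlapped those of no other population. Airway CD24hi cells differed from airway CD24lo cells by −0.95 (SE 0.12, adjusted p = 3.15e-06) and from alveolar cells by −1.64 (SE 0.12, adjusted p = 1.22e-09). Airway CD24lo cells were also below alveolar cells (−0.70, SE 0.12, adjusted p = 6.93e-05). Basal and non-basal cells were not told apart (−0.045, 95% confidence interval −0.28 to 0.18, adjusted p = 0.766). In GENCODE M21, 7.69% of the 4476 exonic bases of Xrcc6 overlap Desi1 on the opposite strand. The counting used RefSeq exons, with a length of 2113 for Xrcc6, so this percent need not hold for the exons counted. The strand setting of the counting is not given in the sources used here, so whether reads of both genes were mixed cannot be told. Desi1 was at 18.1 ± 0.380 RPKM (SD, n = 3) in alveolar, 8.52 ± 0.715 RPKM (SD, n = 3) in airway CD24hi and 6.58 ± 0.346 RPKM (SD, n = 3) in EpCAM-negative cells. Over the 18 libraries, which fall into the same 6 populations, its log2 level had r = 0.788 with that of Xrcc6.

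The ratio of Xrcc5 to Xrcc6, each per length, set both subunits on one scale that does not depend on library size. It was 2.69, 2.89 and 2.89 in basal, 2.72, 3.37 and 3.10 in airway CD24hi, 1.92, 1.98 and 2.05 in non-basal, 1.54, 1.69 and 1.81 in airway CD24lo, 0.920, 0.817 and 0.774 in alveolar and 0.798, 0.814 and 0.864 in EpCAM-negative cells. Airway CD24hi and CD24lo cells, whose Xrcc5 was not told apart, thus had ratios of 3.06 ± 0.327 and 1.68 ± 0.134 (SD, n = 3). Alveolar and EpCAM-negative cells shared a ratio below 1 at different levels of both transcripts. In 13 of the 15 pairs of populations the 3 ratios of one did not overlap those of the other. The exceptions were basal with airway CD24hi cells (exact two-sided permutation p = 0.3) and EpCAM-negative with alveolar cells (exact p = 0.8). The 13 pairs had p = 0.1 in the exact permutation test, the smallest that 3 against 3 libraries allow, and 0.115 after adjustment over 15 pairs.

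**Figure D2:**
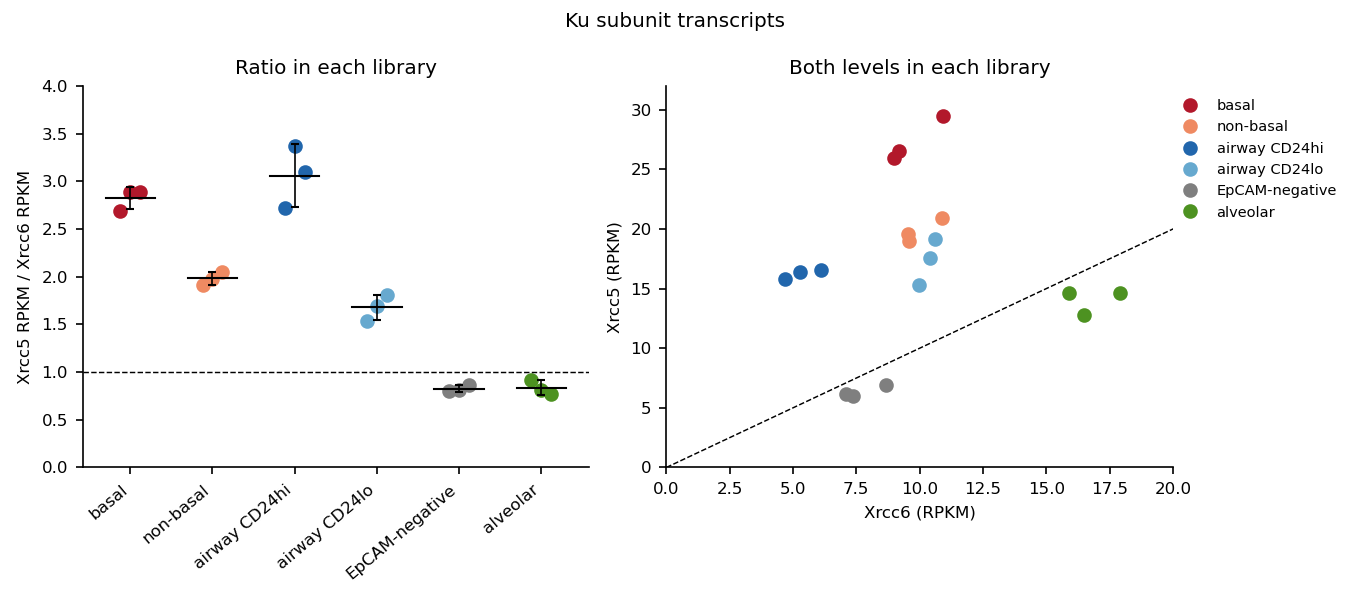
Left, ratio of Xrcc5 to Xrcc6 RPKM in each library by population, with the mean and SD of 3 libraries; right, Xrcc5 against Xrcc6 in RPKM in each library, with a dashed line of equal levels. The ratio was above 1 in all 12 libraries of basal, non-basal and airway cells and below 1 in all 6 libraries of alveolar and EpCAM-negative cells.

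Prkdc (chr16:15637444-15842239, plus strand), which encodes DNA-PKcs, was highest in basal cells and had its lowest means in both airway populations. It was at 3.90, 3.14 and 3.27 RPKM in basal, 2.77, 2.50 and 2.71 RPKM in non-basal, 2.27, 2.29 and 2.50 RPKM in alveolar and 2.46, 2.36 and 2.23 RPKM in EpCAM-negative cells. Airway CD24lo cells had 1.88, 1.84 and 2.29 RPKM and airway CD24hi cells 1.41, 1.77 and 1.85 RPKM. Every basal library lay above all libraries of the other populations. Basal cells exceeded airway CD24hi cells by 1.04 (SE 0.11, adjusted p = 2.85e-07), airway CD24lo cells by 0.78 (SE 0.12, adjusted p = 1.32e-05) and EpCAM-negative cells by 0.55 (SE 0.11, adjusted p = 0.000319). The excess over non-basal cells (0.37, SE 0.11, adjusted p = 0.00977) was lost without basal replicate 1 (adjusted p = 0.0656). Within the lung, airway CD24hi cells were lower than alveolar cells (−0.49, SE 0.12, adjusted p = 0.00159), a call lost with library size alone (adjusted p = 0.246) and in a fit of only these libraries (adjusted p = 0.0555), and the difference between both airway populations did not pass the test (−0.25, 95% confidence interval −0.51 to −0.0026, adjusted p = 0.0813). Airway CD24lo cells were below non-basal cells (−0.41, SE 0.12, adjusted p = 0.00668). Prkdc is longer than most genes, at the 99.4th percentile of length among those tested, and long genes differed as a class: between basal and non-basal cells the median difference was 0.15 in the longest 20% of genes and −0.17 in the shortest 20%. With each library corrected for its trend with gene length, the differences of Prkdc between basal and non-basal (adjusted p = 0.194), basal and alveolar (adjusted p = 0.89), basal and EpCAM-negative (adjusted p = 0.0543), EpCAM-negative and airway CD24hi (adjusted p = 0.0511) and airway CD24lo and non-basal cells (adjusted p = 0.106) no longer passed the test, whereas those between basal and each airway population did.

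Dclre1c and Polm encode enzymes that shape the ends, and both were lower in airway CD24hi than in airway CD24lo cells. Dclre1c (Artemis, chr2:3424061-3474211, plus strand) was at 0.996, 1.31 and 0.975 RPKM in airway CD24hi cells and at 2.49, 2.54 and 2.28 RPKM in airway CD24lo cells. Polm (polymerase mu, chr11:5827860-5838832, minus strand) was at 6.14, 4.43 and 4.28 RPKM in airway CD24hi cells and at 8.53, 9.30 and 8.50 RPKM in airway CD24lo cells. For neither gene did the libraries of these populations overlap. The log2 differences were −1.15 (SE 0.17, adjusted p = 1.8e-05) for Dclre1c and −0.83 (SE 0.13, adjusted p = 2.6e-05) for Polm, and both held under every alternative setting. Airway CD24lo cells had more Dclre1c than alveolar cells (1.79, 1.50 and 1.17 RPKM), by 0.71 (SE 0.17, adjusted p = 0.00211). Their Polm was not told apart from that of alveolar cells, at 8.16, 9.34 and 9.49 RPKM (−0.035, 95% confidence interval −0.30 to 0.23, adjusted p = 0.842). Dclre1c was at 1.48 to 1.65 RPKM in basal, 1.71 to 1.82 RPKM in non-basal and 1.30 to 2.02 RPKM in EpCAM-negative libraries, and neighbours among these means were not told apart. Polm was at 7.11 to 7.75 RPKM in basal, 7.96 to 9.08 RPKM in non-basal and 6.09 to 7.41 RPKM in EpCAM-negative libraries. In GENCODE M21, which was not the annotation used for counting, Suv39h2 on the opposite strand overlaps 3.83% of the exonic bases of Dclre1c.

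Lig4, the ligase of the pathway (chr8:9970020-9977680, minus strand), was set apart in tracheal non-basal cells. It was at 4.54, 6.48 and 6.21 RPKM there and at 2.54, 2.97 and 2.63 RPKM in basal cells of the same mice. Airway CD24hi cells had 2.07, 2.51 and 3.10 RPKM, airway CD24lo cells 2.17, 2.55 and 2.82 RPKM, alveolar cells 2.46, 2.50 and 1.93 RPKM and EpCAM-negative cells 1.65, 1.72 and 1.85 RPKM. All 3 non-basal libraries lay above the other 15. The goblet marker sum and the immune marker sum given above, the latter mostly Lyz2, also differed between basal and non-basal cells. The club and secretory marker sum was 239266 to 247144 RPKM in non-basal and 19948.5 to 30162.3 RPKM in basal cells. For the ciliated markers the sum was 77.4 to 116 RPKM in non-basal and 7.73 to 12.5 RPKM in basal cells. The part of these cells in the level of Lig4 was not tested. Relative to non-basal cells the difference was −1.08 (SE 0.15, adjusted p = 1.63e-05) in basal, −1.17 (SE 0.16, adjusted p = 5.41e-06) in airway CD24hi, −1.20 (SE 0.17, adjusted p = 1.15e-05) in airway CD24lo and −1.72 (SE 0.17, adjusted p = 5.41e-08) in EpCAM-negative cells, and non-basal exceeded alveolar cells by 1.32 (SE 0.17, adjusted p = 1.98e-06). Airway CD24hi and CD24lo cells were not told apart (0.030, 95% confidence interval −0.34 to 0.40, adjusted p = 0.903). Abhd13, whose RefSeq start lies 37 bases from that of Lig4, was at 11.2 ± 0.233 RPKM (SD, n = 3) in non-basal and 10.1 ± 0.211 RPKM (SD, n = 3) in basal cells.

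Xrcc4, the partner of Lig4 (chr13:89848914-90089608, minus strand), had another order, with airway CD24hi cells at the top and basal cells at the bottom. It was at 8.83, 11.0 and 14.5 RPKM in airway CD24hi cells, its widest spread in any population, and at 8.27, 9.77 and 9.30 RPKM in airway CD24lo cells. Non-basal cells had 8.06, 7.31 and 7.05 RPKM, EpCAM-negative cells 7.53, 8.27 and 6.45 RPKM, alveolar cells 7.69, 7.02 and 6.79 RPKM and basal cells 6.20, 5.00 and 5.58 RPKM. The basal libraries were the 3 lowest, and neighbours in the order of means were not told apart. Airway CD24hi cells exceeded alveolar cells by 0.67 (SE 0.16, adjusted p = 0.00137) and non-basal cells by 0.61 (SE 0.15, adjusted p = 0.00172), while basal cells differed from airway CD24hi cells by −1.03 (SE 0.15, adjusted p = 9.84e-06). The lower level in basal than in non-basal cells (−0.42, SE 0.15, adjusted p = 0.0284) was lost without basal replicate 2 or 3 or non-basal replicate 1 or 2 (adjusted p from 0.0524 to 0.12), with library size alone (adjusted p = 0.722) and with the length correction (adjusted p = 0.27). Tmem167 overlaps 2.66% of the exonic bases of Xrcc4 on the opposite strand in GENCODE M21, which was not the annotation used for counting. It was at 2.76 ± 0.727 RPKM (SD, n = 3) in airway CD24hi cells.

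Nhej1 (XLF, chr1:74967346-75125226, minus strand), a helper of the ligase complex, was higher in airway CD24hi than in airway CD24lo cells. It was at 6.32, 6.12 and 5.49 RPKM in the former, from 72, 71 and 60 counts, and at 3.21, 4.34 and 3.21 RPKM in the latter, from 30, 38 and 24 counts. The libraries did not overlap, and the difference was 0.73 (SE 0.19, adjusted p = 0.00276). Airway CD24lo cells were also below alveolar cells (4.71, 6.10 and 5.28 RPKM), with a difference of −0.58 (SE 0.19, adjusted p = 0.0186). This call was lost without airway CD24lo replicate 1 or 3 or alveolar replicate 2 (adjusted p from 0.067 to 0.0799) and in a fit of only these libraries (adjusted p = 0.0948). Basal (3.81 to 4.66 RPKM), non-basal (4.09 to 5.19 RPKM) and EpCAM-negative libraries (3.55 to 4.39 RPKM) had means in between.

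Paxx (chr2:25455120-25462654, minus strand), a relative of Xrcc4 that binds Ku, had the highest mean RPKM of the 10 genes in the 4 lung populations, while Xrcc5 did in basal cells. In non-basal cells both were close, Xrcc5 at 19.8 ± 0.989 RPKM and Paxx at 19.7 ± 0.648 RPKM (SD, n = 3). Paxx was at 37.5, 36.5 and 33.5 RPKM in alveolar and 40.7, 30.2 and 28.6 RPKM in airway CD24hi cells, which overlapped. EpCAM-negative cells had 25.8, 24.8 and 24.2 RPKM, airway CD24lo cells 26.5, 24.8 and 21.5 RPKM, non-basal cells 19.5, 19.2 and 20.4 RPKM and basal cells 14.5, 13.7 and 14.3 RPKM. The 3 basal libraries were the lowest of the 18, and the non-basal ones the next lowest. Basal cells differed from non-basal cells by −0.48 (SE 0.11, adjusted p = 0.00216), a call lost with library size alone (adjusted p = 0.378), and from airway CD24hi cells by −1.23 (SE 0.12, adjusted p = 3.59e-08). Within the airway, CD24hi exceeded CD24lo cells by 0.45 (SE 0.12, adjusted p = 0.00376), and by 0.27 (adjusted p = 0.0153) without airway CD24hi replicate 1. Airway CD24lo cells differed from alveolar cells by −0.56 (SE 0.12, adjusted p = 0.000754). Over the 18 libraries the log2 levels of Paxx and Prkdc had r = −0.779, and Xrcc6 and Polm had the highest r among the 10 genes, 0.862; these libraries fall into the same 6 populations and share their scaling.

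Aplf (chr6:87628425-87672237, minus strand), a scaffold that binds Ku and Xrcc4, was highest in basal cells. It was at 3.09, 3.25 and 3.15 RPKM in basal, 2.85, 2.60 and 2.26 RPKM in non-basal, 2.45, 1.76 and 2.04 RPKM in EpCAM-negative, 2.45, 2.22 and 1.45 RPKM in alveolar, 1.94, 2.22 and 1.69 RPKM in airway CD24lo and 1.77, 1.63 and 1.61 RPKM in airway CD24hi cells. The basal libraries were the 3 highest, and the lung populations overlapped each other. Basal exceeded EpCAM-negative cells by 0.60 (SE 0.17, adjusted p = 0.00396), airway CD24lo cells by 0.70 (SE 0.17, adjusted p = 0.00189) and airway CD24hi cells by 0.92 (SE 0.17, adjusted p = 0.000105). The difference between basal and non-basal cells did not pass the test (0.30, 95% confidence interval −0.030 to 0.63, adjusted p = 0.126), nor did any between neighbours in the order of means. Gm44097, an antisense gene, overlaps 2.35% of the exonic bases of Aplf in GENCODE M21, which was not the annotation used for counting.

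**Figure D3:**
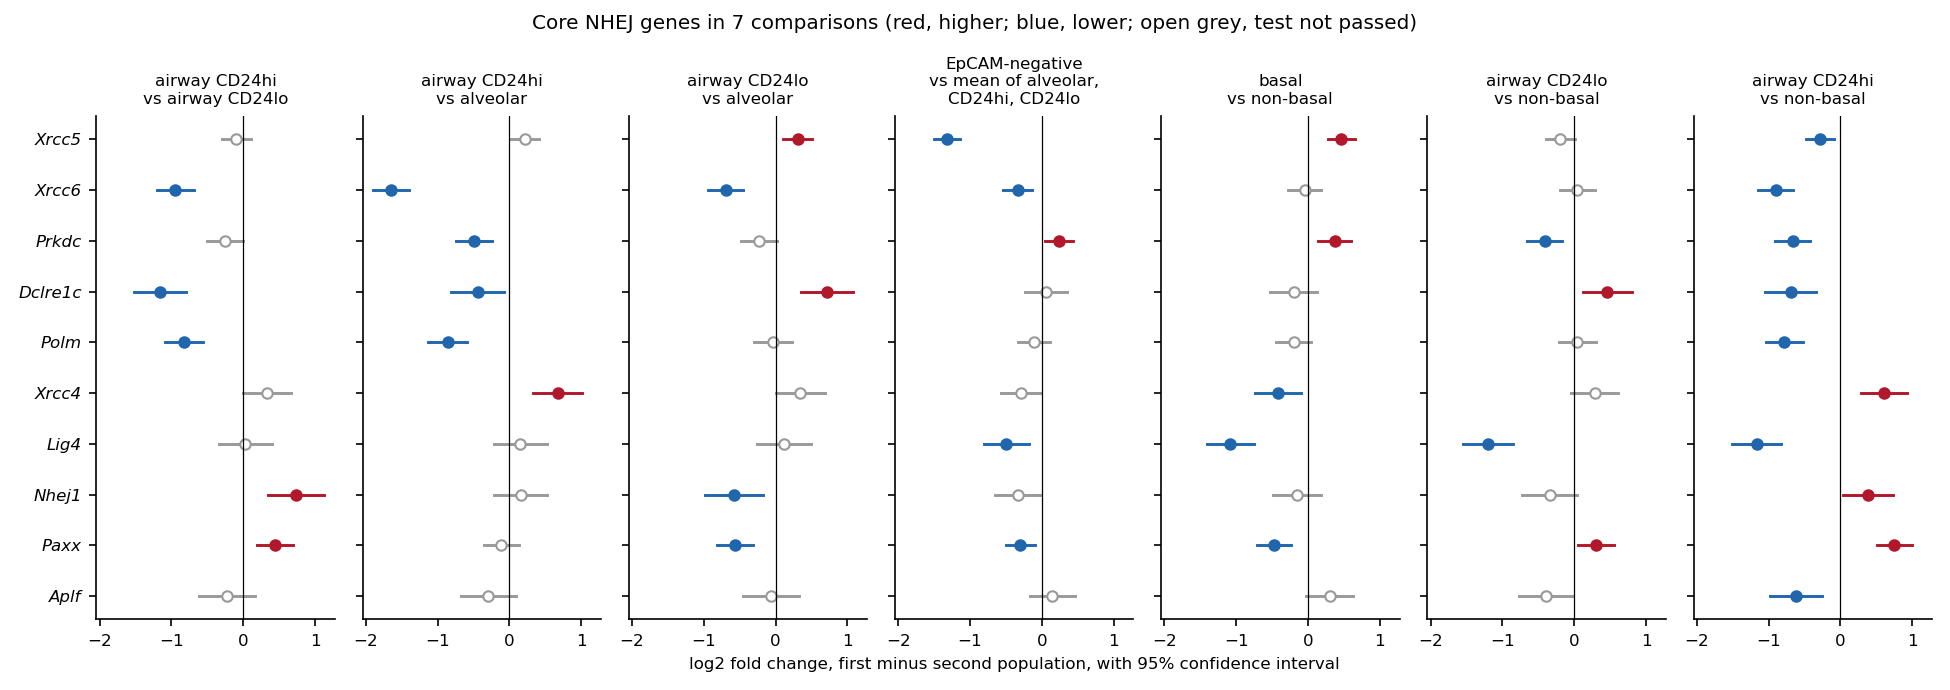
Log2 fold change (first minus second population) with 95% confidence interval for each core NHEJ gene in 7 comparisons; filled points passed the test and open points did not. Airway CD24hi cells differed from airway CD24lo cells in 5 genes, beside 55.0% of all tested genes. They differed from tracheal non-basal cells in all 10, beside 68.4%, where the call of Nhej1 was lost without some single libraries and with the length correction.

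The comparison of airway CD24hi with CD24lo cells sets the gates enriched in ciliated and in club cells of the same lungs against each other. Nhej1 and Paxx were higher and Xrcc6, Dclre1c and Polm lower in airway CD24hi cells, so 5 of 10 genes differed, beside 55.0% of all tested genes. Of these calls only that of Paxx was lost under any alternative, in a fit of only these 6 libraries (adjusted p = 0.0779). Against alveolar cells, airway CD24hi cells had Xrcc4 higher and Xrcc6, Prkdc, Dclre1c and Polm lower, 5 of 10 beside 61.9%. The call of Dclre1c (−0.44, SE 0.18, adjusted p = 0.0375) was lost without airway CD24hi replicate 1 or 3 or alveolar replicate 1 or 2 (adjusted p from 0.0739 to 0.211), with a difference of −0.29 (adjusted p = 0.211) without alveolar replicate 1, and under 4 of the other settings. Airway CD24lo cells had Xrcc5 and Dclre1c higher and Xrcc6, Nhej1 and Paxx lower than alveolar cells, 5 of 10 beside 48.4%. The comparisons with alveolar cells share the alveolar libraries. In none of the 3 was the share of core NHEJ genes far from that of all genes. With library size alone, the share of higher among all differing genes went from 50.5% to 68.4% for airway CD24hi against CD24lo cells, where 3 core genes were then higher and 3 lower, and from 49.2% to 65.4% against alveolar cells, with 4 higher and 2 lower.

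EpCAM-negative cells, outside the epithelium, were compared with the mean of the 3 lung epithelial populations. Xrcc5 (−1.32), Xrcc6 (−0.34, SE 0.098, adjusted p = 0.00523), Lig4 (−0.49, SE 0.15, adjusted p = 0.00687) and Paxx (−0.30, SE 0.097, adjusted p = 0.0113) were lower and Prkdc was higher (0.24, SE 0.094, adjusted p = 0.0324), 5 of 10 beside 69.0% of all genes. The call of Prkdc was lost without any 1 of 6 libraries, namely EpCAM-negative replicate 1, 2 or 3, alveolar replicate 1 or 3 or airway CD24lo replicate 2 (adjusted p from 0.0512 to 0.119), in a fit of only these libraries (adjusted p = 0.0521) and with the length correction (adjusted p = 0.575). That of Paxx was lost with library size alone (adjusted p = 0.0556) and with the length correction (adjusted p = 0.903). Population by population, of the 10 genes EpCAM-negative cells had 4 higher and 5 lower than airway CD24hi cells, beside 72.2% of all genes, 0 higher and 5 lower than airway CD24lo cells, beside 63.4%, and 0 higher and 5 lower than alveolar cells, beside 61.9%. Xrcc5 was lower in each case, at −1.36, −1.45 and −1.14. With library size alone, 4 of the 5 calls against airway CD24lo cells were lost, all but that of Xrcc5, and with the length correction 4 of the 9 calls against airway CD24hi cells. Paxx was lower than in airway CD24hi cells (−0.41, SE 0.12, adjusted p = 0.00438), at −0.24 (adjusted p = 0.0231) without airway CD24hi replicate 1. Xrcc6 was higher than in airway CD24hi cells (0.52, SE 0.12, adjusted p = 0.000859) but lower than in alveolar cells (−1.12, SE 0.12, adjusted p = 1.56e-07). The lower Nhej1 than in alveolar cells was lost without EpCAM-negative replicate 2 or 3 or alveolar replicate 2 (adjusted p from 0.0734 to 0.133) and under 5 of the other settings, and the lower Lig4 was lost against airway CD24hi cells without airway CD24hi replicate 3 (adjusted p = 0.0623) and against airway CD24lo cells without EpCAM-negative replicate 1 (adjusted p = 0.0558).

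In the trachea, basal cells had Prkdc and Xrcc5 higher and Xrcc4, Lig4 and Paxx lower than non-basal cells of the same mice, 5 of 10 beside 48.2% of all genes. With library size alone, the share of higher among all differing genes went from 45.5% to 72.2%, with 4 core genes higher and 1 lower. Airway CD24lo cells had Paxx and Dclre1c higher and Prkdc and Lig4 lower than non-basal cells, 4 of 10 beside 53.1%. Paxx (0.30, SE 0.12, adjusted p = 0.0389) was lost without any 1 of non-basal replicates 1, 2 and 3 and airway CD24lo replicates 1 and 2 (adjusted p from 0.058 to 0.153). Library size alone (adjusted p = 0.0747) and no filter (adjusted p = 0.0692) also lost this call. With the length correction the difference of Paxx was 0.0030 (adjusted p = 0.984). Paxx is shorter than most genes, at the 11th percentile of length among those tested. In this comparison the shortest genes, classed as above for Prkdc, had a median difference of 0.30. Dclre1c (0.46, SE 0.16, adjusted p = 0.0229) was lost without non-basal replicate 1 or 3 or airway CD24lo replicate 1 or 2 (adjusted p from 0.0507 to 0.0638). Without non-basal replicate 1, airway CD24lo replicate 1 or airway CD24lo replicate 2, 2 of 10 genes differed. Airway CD24hi cells differed from non-basal cells in all 10 genes, 3 higher (Xrcc4, Nhej1 and Paxx) and 7 lower, beside 68.4% of all genes. The call of Nhej1 (0.39, SE 0.17, adjusted p = 0.0456) was lost without non-basal replicate 2 or 3 or airway CD24hi replicate 1 or 2 (adjusted p from 0.0974 to 0.154). With library size alone, the share of higher among all genes that differed here went from 54% to 66%, with 3 core genes higher and 5 lower, the calls of Xrcc5 and Aplf being lost.

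Among the remaining pairs, of the 10 genes basal cells had 6 higher and 3 lower than airway CD24hi cells, beside 72.0% of all genes, with Lig4 the exception (0.085, 95% confidence interval −0.26 to 0.43, adjusted p = 0.652). The call of Dclre1c in this pair was lost without airway CD24hi replicate 3 (adjusted p = 0.0588). With the length correction the calls of Dclre1c (0.16, adjusted p = 0.383) and Nhej1 (−0.034, adjusted p = 0.862) were lost. Without the correction these differences were 0.49 and −0.54. In this pair the shortest genes, classed as above for Prkdc, had a median difference of −0.52 and the longest 0.29. Basal cells had 3 higher and 3 lower than airway CD24lo cells (beside 63.8%), 5 higher and 2 lower than EpCAM-negative cells (70.3%) and 3 higher and 2 lower than alveolar cells (66.1%). Against EpCAM-negative cells, Xrcc4 was lost without basal replicate 2 or 3 or EpCAM-negative replicate 1 or 2 (adjusted p from 0.0583 to 0.117) and Xrcc6 without basal replicate 1 or EpCAM-negative replicate 2 or 3 (adjusted p from 0.0569 to 0.0897). EpCAM-negative cells had 1 higher and 4 lower than non-basal cells (71.6%), where Polm was lost without non-basal replicate 2 or EpCAM-negative replicate 2 or 3 (adjusted p from 0.0505 to 0.0785), and non-basal cells had 2 higher and 2 lower than alveolar cells (64.0%). The share of core NHEJ genes was below that of all genes in 11 of these 16 comparisons and above it in 5, and the comparisons share libraries. Over all 15 pairs of populations, 89 of 150 tests were passed, while 48.2% to 72.2% of all tested genes differed in each pair. The passed tests are thus no result about the core genes as a group. Paxx differed in 13 pairs, Xrcc5 and Xrcc6 in 12 each, Prkdc and Dclre1c in 9 each, Lig4 and Polm in 8 each, Xrcc4 in 7, Nhej1 in 6 and Aplf in 5. The pairs in which other genes differed were not counted. Under the alternatives run, none of these calls of core genes changed its sign.

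**Figure D4:**
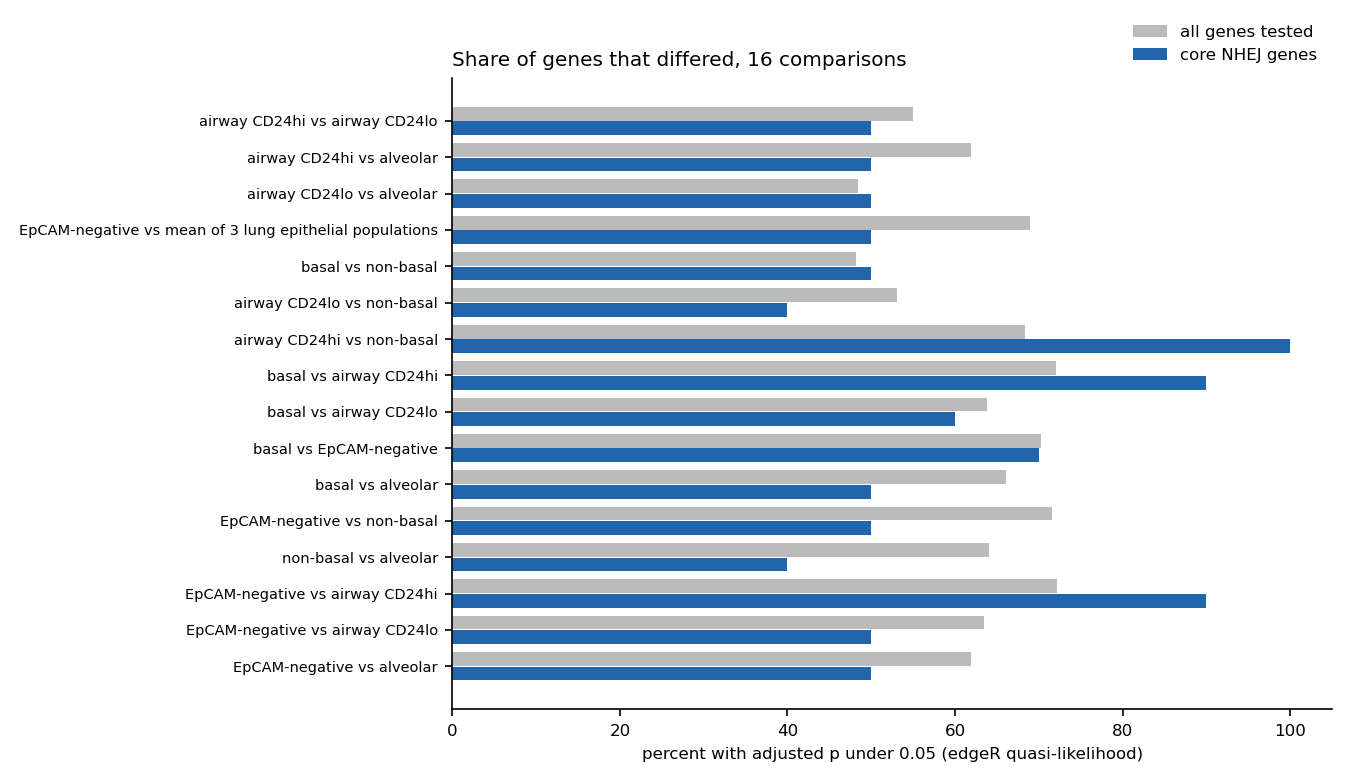
Percent of genes with an adjusted p under 0.05 in 16 comparisons, for all 17989 tested genes and for the 10 core NHEJ genes. Airway CD24hi cells differed in all 10 genes from non-basal cells, beside 68.4% of all genes, and in 5 of 10 from airway CD24lo cells, beside 55.0%.

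The airway CD24hi gate had the lowest mean of the 6 populations for 5 of the 10 genes (Prkdc, Xrcc6, Dclre1c, Aplf and Polm) and the highest for 2 (Xrcc4 and Nhej1). Of these, Prkdc (adjusted p = 0.0813), Aplf (adjusted p = 0.325), Xrcc4 (adjusted p = 0.0905) and Nhej1 (adjusted p = 0.46) were not told apart from the next population. Basal cells were highest for Xrcc5, Prkdc and Aplf and lowest for Xrcc4 and Paxx. Here Aplf (adjusted p = 0.126) and Xrcc4 (adjusted p = 0.0552) were not told apart from the next. Such ranks were not counted over all genes. The mean of the highest population over that of the lowest ran from 1.67 for Nhej1 to 4.30 for Xrcc5, with a median of 2.14, beside a median of 3.90 over 16545 tested genes detected in all 6 populations. The genes most like a core gene in log2 RPKM over the 18 libraries, out of 12119 genes, were Nol11 (r = 0.952), Rrm1 (r = 0.943) and Pdzd8 (r = 0.937) for Prkdc. For Xrcc5 they included Krt7 (r = 0.987) and Ripk4 (r = 0.984), and for Lig4 they were Slc35a3 (r = 0.928), Galm (r = 0.928) and Clpx (r = 0.927). The 18 libraries fall into 6 populations, so these values describe the population means more than independent points.

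Other genes of break repair were read from lists beside the core genes, and the number of each list that differed is given beside the percent of all tested genes that did. A share near that percent is no result about the list. Of 11 accessory end-joining genes, 10 were tested, and airway CD24hi cells had 6 higher and 1 lower (7 of 10, beside 55.0%) than airway CD24lo cells, with a median of 0.43 beside −0.061 over all genes. Cyren, a regulator of NHEJ (1.27, SE 0.24, adjusted p = 0.000257), and Ercc6l2 (0.58, SE 0.12, adjusted p = 0.000416) were higher, and Tdp2, which removes topoisomerase adducts, was lower (−0.79, SE 0.17, adjusted p = 0.000579). Against alveolar cells, airway CD24hi cells had 4 higher and 0 lower (4 of 10, beside 61.9%) and airway CD24lo cells 1 higher and 1 lower (2 of 10, beside 48.4%). EpCAM-negative cells had 2 higher and 4 lower (6 of 10, beside 69.0%) than the lung epithelium, and Tdp1, which clears blocked ends, was higher there (1.23, SE 0.095, adjusted p = 2.17e-09). Against non-basal cells there were 2 higher and 1 lower (3 of 10, beside 48.2%) in basal, 3 higher and 1 lower (4 of 10, beside 53.1%) in airway CD24lo and 6 higher and 1 lower (7 of 10, beside 68.4%) in airway CD24hi cells.

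Of 15 genes of break sensing and end protection, 14 were tested. Airway CD24hi cells had 7 higher and 2 lower (9 of 14, beside 55.0%) than airway CD24lo cells, with a median of 0.27 beside −0.061 over all genes, among them Paxip1 (1.54, SE 0.081, adjusted p = 3.24e-10), the histone gene H2afx (0.92, SE 0.13, adjusted p = 1.38e-05) and, lower, the kinase gene Atm (−0.88, SE 0.14, adjusted p = 2.88e-05). Basal cells had 6 higher and 0 lower (6 of 14, beside 48.2%) than non-basal cells, among them Atm (0.62, SE 0.13, adjusted p = 0.000565) and Rad50 (0.55, SE 0.10, adjusted p = 0.000202), which tethers ends. Against non-basal cells there were also 2 higher and 8 lower (10 of 14, beside 53.1%) in airway CD24lo and 5 higher and 6 lower (11 of 14, beside 68.4%) in airway CD24hi cells, where Rif1, which protects ends from resection, was lower (−1.82, SE 0.24, adjusted p = 3.07e-06). Against alveolar cells there were 7 higher and 3 lower (10 of 14, beside 61.9%) in airway CD24hi and 2 higher and 4 lower (6 of 14, beside 48.4%) in airway CD24lo cells. EpCAM-negative cells had 2 higher and 6 lower (8 of 14, beside 69.0%) than the lung epithelium, with Rad50 higher (0.96, SE 0.081, adjusted p = 6.76e-09) and Rnf8, a ubiquitin ligase of the break response, lower (−1.15, SE 0.083, adjusted p = 7.91e-10).

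Alternative end joining and resection, which compete with NHEJ for the ends, were read from 10 genes, all tested. Airway CD24hi cells had 2 higher and 4 lower (6 of 10, beside 55.0%) than airway CD24lo cells, with a median of −0.029 beside −0.061 over all genes. The nuclease genes Dna2 (2.54, SE 0.30, adjusted p = 1.13e-06) and Exo1 (1.51, SE 0.42, adjusted p = 0.00563) were higher, and the polymerase gene Polq (−1.44, SE 0.41, adjusted p = 0.00666) and the ligase gene Lig1 (−0.89, SE 0.14, adjusted p = 2.73e-05) were among the lower ones. Exo1 and Polq were at low levels. Exo1 had means of 0.299 RPKM in airway CD24hi and 0.105 RPKM in airway CD24lo cells, and Polq of 0.0468 and 0.130 RPKM. Against alveolar cells there were 3 higher and 3 lower (6 of 10, beside 61.9%) in airway CD24hi and 2 higher and 0 lower (2 of 10, beside 48.4%) in airway CD24lo cells, and EpCAM-negative cells had 2 higher and 5 lower (7 of 10, beside 69.0%) than the lung epithelium. Against non-basal cells there were 5 higher and 0 lower (5 of 10, beside 48.2%) in basal, 0 higher and 7 lower (7 of 10, beside 53.1%) in airway CD24lo and 1 higher and 7 lower (8 of 10, beside 68.4%) in airway CD24hi cells. Of 5 proliferation genes, basal cells had 5 higher and 0 lower (5 of 5, beside 48.2%) than non-basal cells, with Mki67 (1.58, SE 0.28, adjusted p = 0.00016) and Top2a (1.26, SE 0.20, adjusted p = 4.32e-05) among them. Airway CD24hi cells had 0 higher and 3 lower (3 of 5, beside 55.0%) than airway CD24lo cells and 0 higher and 3 lower (3 of 5, beside 61.9%) than alveolar cells, and EpCAM-negative cells had 0 higher and 3 lower (3 of 5, beside 69.0%) than the lung epithelium. Airway CD24lo cells had 1 higher and 2 lower (3 of 5, beside 48.4%) than alveolar cells, and against non-basal cells there were 0 higher and 4 lower (4 of 5, beside 53.1%) in airway CD24lo and 0 higher and 4 lower (4 of 5, beside 68.4%) in airway CD24hi cells. The part of proliferation in the levels of the core NHEJ genes was not tested.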

How the data were processed

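RNA was sequenced from 18 libraries of sorted mouse cells, grouped by label into 6 populations of 3 mice each. Per the methods, the authors mapped reads to mm10 using Rsubread, and they deposited unnormalised read counts per Entrez gene, made by featureCounts with its in-built RefSeq annotation, and a gene length. The submitters' notes also name bcl2fastq 1.8.4. Symbols, locations and the windows before transcript starts came from RefSeq GRCm38.p6, which matched 25275 of 27179 identifiers, and exon overlaps from GENCODE M21.

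Counts were analysed in edgeR 4.0.16 (R 4.3.3). A gene was kept if 3 or more libraries exceeded a CPM of 0.2. Library sizes were scaled by TMM (factors 0.871 to 1.20), and all 18 libraries entered 1 quasi-likelihood model of 6 group means, with Benjamini-Hochberg adjustment and a threshold of 0.05. RPKM used the deposited gene length. The Xrcc5 to Xrcc6 ratio was compared by an exact two-sided permutation test. The alternatives were DESeq2 1.42.0, voom of limma 3.58.1, RLE factors or library size without factors, a CPM filter of 1 or none, models of the compared libraries only, a block for the mouse, a correction for the trend with gene length, and leaving out each library in turn.

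The core genes, gene lists and tests were chosen with earlier results of these data known. From each list and main comparison at most the 2 largest rises and 2 largest falls past the test are named, and the genes most like Prkdc, Xrcc5 and Lig4 are the 3 with the highest Pearson r among genes with a mean CPM of at least 5, of which 1 is not reported here. Populations of an organ share mice by label. The deviations of same-mouse libraries from their group means had r of −0.046 to 0.210 in the lung and 0.056 to 0.226 in the trachea, and with the mouse as a replicate block 90 of 150 pairwise tests of core genes were passed. No replicates agreed within sampling noise (lowest chi-square per degree of freedom 3.51). In basal, non-basal, airway CD24hi and airway CD24lo cells, replicate 1 stood apart from replicates 2 and 3, at 21.1 to 39.6. Alveolar replicate 2 stood apart likewise, at 38.1 and 36.2, while the other pairs ranged from 3.51 to 7.50. The cause was not tested.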

Additional observations from a re-analysis of the deposited data

How the results depend on the processing

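All 39 calls of core NHEJ genes in the 7 main comparisons kept their direction under every alternative run. All 39 stayed past the threshold with RLE factors, a CPM filter of 1, DESeq2 and the mouse as a replicate block, and the block lost no call of a core gene, with 5, 5, 5, 5, 5, 4 and 10 genes differing in the 7 comparisons as without it. The number kept was 38 with limma voom, 37 with no filter, 33 with only the libraries compared, 31 with library size alone and 30 with the length correction. The number of differing core genes fell from 5 to 3 with the length correction both in EpCAM-negative cells against the lung epithelium and in basal against non-basal cells, and was 2 to 5 in place of 4 in airway CD24lo against non-basal cells when 1 library was left out; the cause was not tested. Library size alone moved the median of all genes from −0.061 to 0.21 in airway CD24hi against CD24lo cells, from −0.0060 to 0.29 against alveolar cells, from 0.080 to 0.34 against non-basal cells and from −0.017 to 0.31 in basal against non-basal cells. Differences that had not passed the test changed sign with it: airway CD24hi against CD24lo cells in Prkdc (0.037), Xrcc5 (0.20) and Aplf (0.064), airway CD24hi against alveolar cells in Paxx (0.20) and Aplf (0.023), and basal against non-basal cells in Xrcc6 (0.30, then past the test), Nhej1 (0.20), Dclre1c (0.14) and Polm (0.15). The length correction turned Dclre1c in EpCAM-negative cells (−0.15), Xrcc6 (0.078) and Nhej1 (0.091) in basal against non-basal cells and Xrcc6 in airway CD24lo against non-basal cells (−0.029), and a fit of only the libraries compared turned Polm in airway CD24lo against alveolar cells (0.017). When 1 library was left out, differences lay on both sides of 0 for Lig4 in airway CD24hi against CD24lo (−0.13 to 0.17) and against alveolar cells (−0.0055 to 0.28), Polm (−0.10 to 0.019) and Aplf (−0.24 to 0.085) in airway CD24lo against alveolar cells, Dclre1c in EpCAM-negative cells (−0.10 to 0.18), Xrcc6 in basal against non-basal cells (−0.14 to 0.019) and Polm in airway CD24lo against non-basal cells (−0.0044 to 0.090). The Xrcc5 to Xrcc6 ratio then had 13 to 14 of 15 pairs without overlap. Counts of 24 to 38 per library in airway CD24lo cells limit the precision of Nhej1.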
